A study of Mus musculus with 22 samples.

Results

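The 10 genes described here carry out or control the handling of iron by the liver: the hepcidin genes Hamp and Hamp2, their regulators Bmp6, Hfe, Hfe2 and Tfr2, the iron carrier gene Trf, the uptake receptor gene Tfrc, the ferritin gene Fth1 and the iron exporter gene Slc40a1. They were taken by symbol, ignoring case, from 2 expression tables of 24063 and 24019 genes, and all 10 were found in both tables and were kept by the filter on low values. Transcripts were measured by sequencing of total RNA from 22 liver tumours of untreated C57BL/6 mice, 12 in a first set and 10 in a second set. The tumours had been raised by hydrodynamic tail-vein injection, which forces plasmids from the bloodstream into hepatocytes. Every tumour carried MYC, and the second lesion was either in β-catenin (written bcat or CTNNB1 in the labels) or in p53 (written sgp53 in the titles of set 2). Each pair of drivers was combined with lucOS, a luciferase that carries model antigen peptides, or with luc, the luciferase without them. Set 1 held 2 lucOS β-catenin, 4 luc β-catenin, 3 lucOS p53 and 3 luc p53 tumours, and set 2 held 3 lucOS β-catenin, 3 luc β-catenin and 4 lucOS p53 tumours. No liver without a tumour is analysed here, so every value is a difference between tumours that share MYC. The labels name neither the promoters of the plasmids nor the animal of each tumour, so p-values measure the spread between these tumour samples.

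The hormone hepcidin is made by hepatocytes and binds ferroportin, the exporter encoded by Slc40a1, which is then degraded, so that less iron enters the blood. Hepatocytes raise hepcidin transcription when the ligand BMP6 acts through the co-receptor hemojuvelin (Hfe2) and SMAD proteins, when iron-loaded transferrin (Trf) is sensed through HFE and transferrin receptor 2 (Tfr2), and when interleukin 6 acts through STAT3. Inside the cell, iron regulatory proteins bind hairpins called iron-responsive elements when iron is scarce, which blocks translation from hairpins near the start of a transcript, as in the ferritin and ferroportin transcripts, and protects the transcript from decay where the hairpins lie near its end, as in the transcript of the uptake receptor (Tfrc).

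Both hepcidin genes lie close together on chromosome 7, and their promoters are near copies of each other, which is why a matching stretch of each is shown. Over 247 aligned bases upstream of the start sites, 227 were identical, or 91.9%. The first line is from Hamp, chr7:30944099-30944158, and the second from Hamp2, chr7:30924248-30924307, both on the minus strand of GRCm38.p6 and taken from RefSeq. Capitals mark the BMP response element GGCGCC and the STAT site TTCNNNGAA where a script found them on either strand.
Hamp: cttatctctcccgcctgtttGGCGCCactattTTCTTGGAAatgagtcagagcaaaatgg
Hamp2: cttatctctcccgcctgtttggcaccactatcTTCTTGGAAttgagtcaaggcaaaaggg
With positions counted from 1 at the left end of the Hamp line, the 60 bases differed by 6 substitutions. One of them, G24A, lies in the BMP response element at positions 21 to 26, so the Hamp2 window holds the STAT site and not the letters GGCGCC. The element starts 109 bases before the Hamp start site, and the STAT site starts 97 bases before it in Hamp and 94 bases before it in Hamp2. Of 32851 promoters in the table, searched over 250 bases upstream, 9.59% held GGCGCC and 7.02% held TTCNNNGAA. Among the 7 of the 10 genes whose promoter the table holds, GGCGCC was also found in that of Tfrc and the E-box CACGTG, a motif bound by MYC, in that of Bmp6, beside 6.02% of all promoters. The TCF/LEF core TCAAAG, which 13.8% of all promoters held, was in none of the 7. These matches describe letters only.

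The Fth1, Slc40a1 and Tfrc transcripts, and that of the ferritin light chain gene Ftl1, carry iron-responsive elements, and they are shown because these genes are read against one another below. The 17 bases of each hairpin are given with the 6 loop bases in capitals, from GENCODE transcripts on GRCm38. The Fth1 element is at chr19:9982738-9982754 on the plus strand, the Ftl1 element at chr7:45459785-45459801 and the Slc40a1 element at chr1:45925471-45925487 on the minus strand, all in 5′ untranslated regions. The Tfrc elements found with the pattern given below are in its 3′ untranslated region, on the plus strand at chr16:32631225-32631241, chr16:32631604-32631620, chr16:32631669-32631685 and chr16:32631716-32631732. Elements of another form would have been missed.
Fth1: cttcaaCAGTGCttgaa
Ftl1: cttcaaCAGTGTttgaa
Slc40a1: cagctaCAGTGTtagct
Tfrc element 1: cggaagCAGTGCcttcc
Tfrc element 2: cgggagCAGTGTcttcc
Tfrc element 3: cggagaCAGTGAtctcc
Tfrc element 4: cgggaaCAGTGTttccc
A loop of CAGTGN closed by 5 paired bases with an unpaired C before them was found in the transcripts of 294 of 21877 protein-coding genes, or 1.34%.

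Values are the authors' normalised signal, reads divided by 1 factor per tumour, and differences are log2 differences of the value plus 1, β-catenin minus p53 or lucOS minus luc, from a limma fit over all genes of a set. Total reads over genes ran from 33.706 M to 54.873 M per tumour in set 1 and from 33.551 M to 50.116 M in set 2. The threshold for a call was 0.05 on the adjusted p. Of 16108 genes tested in set 1, 2431 were called between the drivers with luc (956 higher, 1475 lower) and 678 with lucOS (261 higher, 417 lower). Of 15625 genes tested in set 2, 2656 were called with lucOS (950 higher, 1706 lower). The median gene lay at -0.20, -0.15 and -0.16 in these comparisons. TMM scaling, which moves those medians to -0.01, 0.00 and -0.01, gave 1222 higher and 680 lower, 317 higher and 197 lower, and 1323 higher and 1023 lower, so differences of the order of the median are not read as directions below. Leaving out 1 tumour lowered these counts by over 1.5 times in several cases. With luc in set 1 the count was 812 and 982 without p53 tumours 1 and 2, and 1604 and 1208 without β-catenin tumours 2 and 3. With lucOS in set 1 it was 121 and 76 without β-catenin tumours 1 and 2, 207 and 219 without p53 tumours 1 and 3, and 18 (0.116%) with the compared groups alone in the fit. In set 2 it was 1222 without lucOS β-catenin tumour 3, and 1232, 1708 and 1127 without p53 tumours 1, 2 and 3. The shares of all genes given below move with these counts. In set 2, the titles of all 6 β-catenin tumours begin with JAX, as does that of 1 of the 4 p53 tumours, and the other 3 begin with AL. The driver and these names can therefore be separated only against that single p53 tumour, p53 tumour 4.

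Between the drivers, limma called Hfe in both sets and Slc40a1 in set 2, and it called the other 8 iron handling genes in no driver comparison. Of those 8, DESeq2 called Trf and Fth1 with luc in set 1, Trf with lucOS in set 1, and Hamp2 and Fth1 in set 2, and edgeR called Trf with luc in set 1 and Hamp2 in set 2. Hfe, a membrane protein that resembles MHC class I and takes part in sensing transferrin-bound iron, was higher in β-catenin tumours, and Slc40a1 was lower in those of set 2. With luc in set 1, 1 of the 10 genes was called (Hfe, higher), where 15.1% of all genes tested were called and 5.93% were called higher. With lucOS in set 1, 0 of 10 were called by limma, where 4.21% of all genes were, and 2 had an unadjusted p under 0.05 (Hfe and Fth1). Over all 16108 genes tested in that comparison, 3809 had one. There, edgeR called 0 of 10 and 2.59% of all genes, and DESeq2 called 2 of 10 (Hfe and Trf) and 12.7% of all genes. With lucOS in set 2, 2 of 10 were called (Hfe higher, Slc40a1 lower), where 17.0% of all genes were. The median difference of the 10 genes was 0.24, 0.49 and 0.18 in the same order, beside -0.20, -0.15 and -0.16 for all genes. In each comparison 6 of 10 were above 0, and the share of all genes above 0 was not counted. The shares called are near those of all genes, so the set as a whole is described gene by gene.

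**Figure D1:**
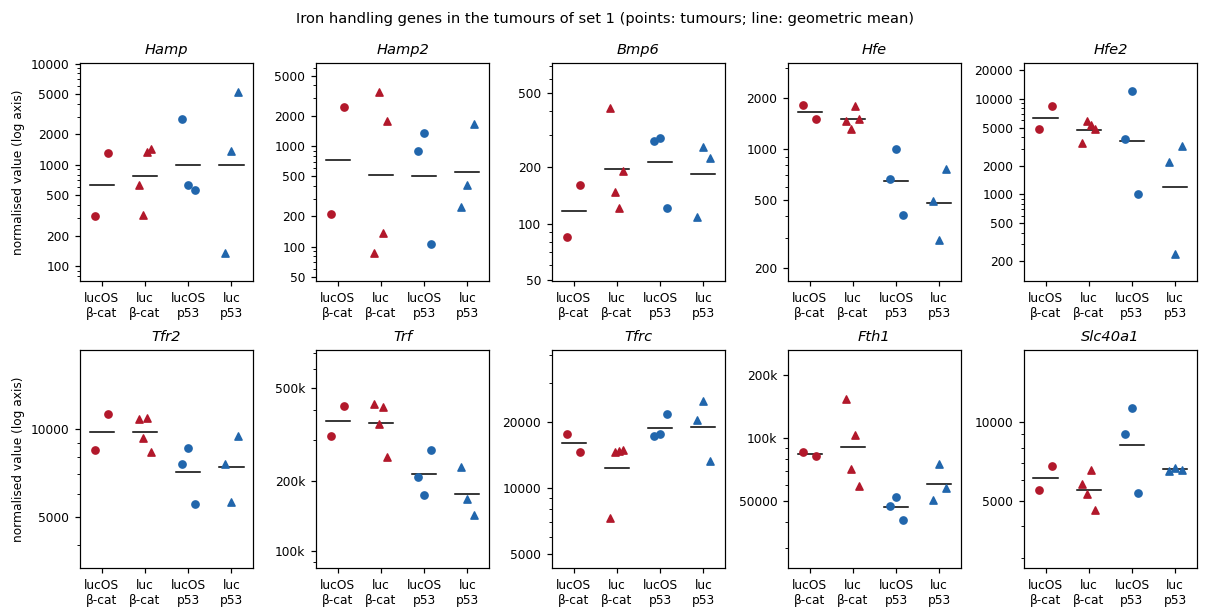
Normalised value of each iron handling gene in the 12 tumours of set 1 (log axis, 1 panel a gene). Points are tumours, circles for lucOS and triangles for luc, red for β-catenin and blue for p53, and lines are geometric means. The 6 β-catenin tumours lie above the 6 p53 tumours for Hfe, and in the other 9 panels the drivers overlap.

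Hfe (chromosome 13, 23702034 to 23710854, minus strand, GRCm38) had the clearest pattern. In set 1, it measured 1453, 1299, 1797 and 1493 in luc β-catenin tumours, against 496, 292 and 759 in luc p53 tumours. With lucOS it measured 1822 and 1492 in β-catenin tumours and 668, 994 and 410 in p53 tumours. The set 2 values were 1117, 998 and 1240 in lucOS β-catenin tumours and 1246, 1233 and 1454 in luc β-catenin tumours, against 583, 602, 580 and 569 in lucOS p53 tumours. Every β-catenin tumour was above every p53 tumour in both sets, as was so for 4.71% of all genes tested in set 1 and 7.14% in set 2. No other iron handling gene was separated upward in either set, and none was downward in set 1, where 8.96% of all genes were. For Hfe the 4 p53 tumours of set 2 lay within a narrow range. The log2 difference was 1.65 with luc in set 1 (SE 0.35, limma adjusted p = 0.0126), or 3.13-fold, and it passed the threshold in every alternative tried. With lucOS it was 1.35 in set 1 (SE 0.41, limma adjusted p = 0.0839), which missed the threshold but passed it without p53 tumour 2 (1.65, adjusted p = 0.0434), and 0.93 in set 2 (SE 0.14, limma adjusted p = 0.00496). Against the single p53 tumour whose title begins with JAX, the set 2 Hfe difference was 0.97 (limma adjusted p = 0.338). With 1 tumour in the p53 arm, 0.152% of all genes passed the threshold, so a missing call in that comparison says little. The driver difference with lucOS minus that with luc in set 1 was -0.30 for Hfe (95% interval -1.48 to 0.88, not called), so the data do not show whether the reporter changes it.

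Beside Hfe, pericentral hepatocyte markers lay higher and cycling cell markers lower in β-catenin tumours. Macrophage and stellate cell markers went both ways in set 2. The summed value of 7 pericentral hepatocyte markers, several of them known targets of β-catenin, ran from 120785 to 392380 in β-catenin tumours and from 9174 to 22015 in p53 tumours of set 1. The set 2 range was from 38389 to 232101 in β-catenin tumours and from 6871 to 11769 in p53 tumours. All 7 were called higher with luc in set 1, and 4 of 7 with lucOS in each set (Cyp2e1, Lhpp, Rhbg and Axin2 in both), and Rhbg alone was at 0 in a tumour, in set 2. Of 9 markers of Kupffer cells and other macrophages, cells that also express Hfe and Slc40a1, Marco and Cd163 were higher with luc in set 1, none was called with lucOS in set 1, and in set 2 Clec4f, Vsig4 and Cd163 were higher and Adgre1 and Csf1r lower. Their summed value ran from 3923 to 14502 in β-catenin tumours and from 888 to 10451 in p53 tumours of set 1, and from 3472 to 6070 in β-catenin tumours and from 4289 to 8814 in p53 tumours of set 2, with 2 markers (Timd4 and Vsig4) at 0 in a tumour of set 1 and 1 (Clec4f) in set 2. Of 8 cycling cell markers, Top2a was lower in all 3 comparisons, and Mki67, Cdk1, Ccna2 and Aurkb in set 2 as well. Of 7 stellate cell markers, 1 was lower with luc in set 1 (Rgs5) and 3 were higher in set 2 (Reln, Dcn and Hand2). The set 2 differences of the 7 went both ways, from -1.45 to 5.02, with 4 above 0. The part of these cells in the Hfe and Slc40a1 differences was not tested. In bulk tumours, fewer cells of a type and less RNA per cell cannot be told apart.

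Slc40a1 (chromosome 1, 45908068 to 45926523, minus strand) encodes ferroportin, the one known iron exporter of mammalian cells. Its set 2 values were 5074, 5460 and 4503 in lucOS β-catenin tumours and 4582, 4637 and 6041 in luc β-catenin tumours, against 7555, 10676, 8601 and 7129 in lucOS p53 tumours. All 6 β-catenin tumours lay below all 4 p53 tumours, as did 15.9% of the genes tested. Among lucOS tumours the log2 difference was -0.75 (SE 0.17, limma adjusted p = 0.0196), or 0.60 of the p53 level, and -0.59 with TMM scaling (adjusted p = 0.0425). It fell short when p53 tumour 3 was left out (-0.74, adjusted p = 0.055), when lucOS β-catenin tumour 3 was left out (-0.67, adjusted p = 0.0632), and against the JAX-titled p53 tumour alone (-0.51, adjusted p = 0.601). In set 1 the drivers overlapped. Slc40a1 measured 5792, 5307, 6548 and 4601 in luc β-catenin tumours against 6488, 6701 and 6588 in luc p53 tumours, a difference of -0.26 (95% interval -0.76 to 0.25, limma adjusted p = 0.465) that was -0.07 with TMM scaling. With lucOS it measured 5517 and 6808 in β-catenin tumours and 9023, 11313 and 5370 in p53 tumours, and the difference was -0.42 (95% interval -1.02 to 0.19, limma adjusted p = 0.391). Set 1 thus neither shows the set 2 difference nor excludes it, since its lucOS interval reaches beyond -0.75.

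**Figure D2:**
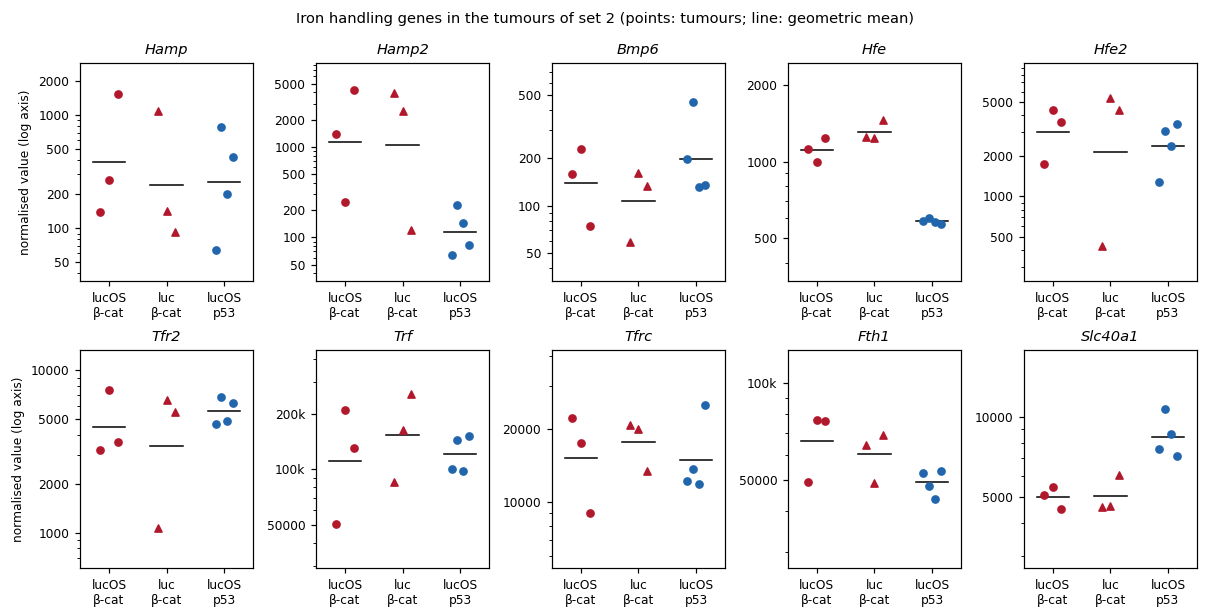
Normalised value of each iron handling gene in the 10 tumours of set 2 (log axis, 1 panel a gene). Points are tumours, circles for lucOS and triangles for luc, red for β-catenin and blue for p53, and lines are geometric means. For Hfe the 6 β-catenin tumours lie above the 4 p53 tumours, for Slc40a1 they lie below them, and Hamp2 ran from 122 to 4266 in β-catenin tumours and from 64.8 to 228 in p53 tumours.

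The 2 hepcidin genes varied widely between tumours of 1 genotype. Hamp (chromosome 7, 30942368 to 30944032, minus strand), which encodes the iron hormone, measured 627, 318, 1327 and 1419 in luc β-catenin tumours of set 1, against 136, 1361 and 5276 in luc p53 tumours. With lucOS it measured 310 and 1301 in β-catenin tumours and 2870, 627 and 558 in p53 tumours. Its set 2 values were 140, 270 and 1544 in lucOS β-catenin tumours and 1099, 143 and 92.9 in luc β-catenin tumours, against 63.9, 794, 203 and 425 in lucOS p53 tumours. The highest tumour exceeded the lowest by 38.9-fold in set 1 and 24.2-fold in set 2, and the highest and the lowest of set 1 were both luc p53 tumours. The driver differences of Hamp were -0.34 with luc and -0.66 with lucOS in set 1 and 0.59 in set 2 (limma adjusted p = 0.854, 0.805 and 0.743). Their 95% intervals, -2.75 to 2.06, -3.53 to 2.22 and -1.92 to 3.10, leave room for changes of over 3-fold in either direction, and leaving out 1 tumour turned the sign in each of the 3 comparisons. Hamp was therefore not shown to differ or to be alike between the drivers.

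Hamp2 (chromosome 7, 30922372 to 30924681, minus strand), the second mouse hepcidin gene, whose peptide is not known to lower blood iron as that of Hamp does, measured 87.3, 3474, 137 and 1768 in luc β-catenin tumours of set 1, against 247, 412 and 1657 in luc p53 tumours. With lucOS it measured 211 and 2458 in β-catenin tumours and 886, 1347 and 106 in p53 tumours of that set. Values thus ran over a wide range within every genotype of set 1. In set 2, Hamp2 measured 1394, 247 and 4266 in lucOS β-catenin tumours and 3923, 2475 and 122 in luc β-catenin tumours, against 64.8, 228, 144 and 82.0 in lucOS p53 tumours. The value of luc β-catenin tumour 3 lay among those of the p53 tumours. The log2 difference among lucOS tumours of set 2 was 3.29 (SE 1.23, limma adjusted p = 0.0898), or 9.81-fold, which missed the threshold. It passed with edgeR (4.09, adjusted p = 0.0409), with DESeq2 (4.09, adjusted p = 0.000295) and with the compared groups alone in the fit (3.29, limma adjusted p = 0.0462), where 14.3%, 24.9% and 15.4% of all genes passed. Leaving out 1 tumour gave from 2.34 without lucOS β-catenin tumour 3 to 4.39 without lucOS β-catenin tumour 2 (limma adjusted p = 0.272 and 0.0477), and the other 5 omissions gave no call. In set 1 the differences were -0.08 with luc and 0.52 with lucOS (limma adjusted p = 0.974 and 0.887), and the first was above 0 with TMM scaling (0.11).

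Per length of transcript, Hamp2 exceeded Hamp in 5 of 6 β-catenin tumours and in 0 of 4 p53 tumours of set 2. In set 1 it did so in 3 of 6 β-catenin tumours and 2 of 6 p53 tumours, so the pattern of set 2 did not appear there. The ratio of Hamp2 to Hamp per kb had a median of 2.70 in lucOS β-catenin, 3.48 in luc β-catenin and 0.487 in lucOS p53 tumours of set 2. In set 1 the medians were 1.25, 0.676, 0.301 and 0.307 in lucOS β-catenin, luc β-catenin, lucOS p53 and luc p53 tumours, with single tumours from 0.101 to 10.7. The Hamp and Hamp2 transcripts shared 388 of 410 aligned bases (94.6%), with 87 as the longest identical run, so reads may have been split between them and their separate values are uncertain. Both genes also overlap Gm44662, a non-coding gene on the other strand, and the sources used here do not state whether strand was kept, so its reads cannot be told apart from theirs.

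**Figure D3:**
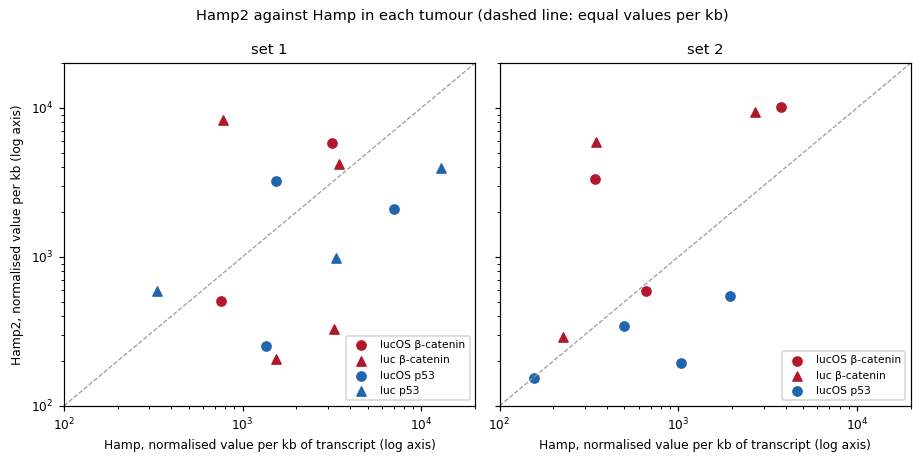
Hamp2 against Hamp in each tumour, as normalised value per kb of transcript on log axes, set 1 on the left and set 2 on the right. Circles are lucOS and triangles luc tumours, red β-catenin and blue p53, and the dashed line marks equal values. In set 2, 5 of 6 β-catenin tumours lie above the line and 0 of 4 p53 tumours do, while in set 1 both drivers lie on both sides.

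Hfe2, Tfr2 and Bmp6, the other regulators of hepcidin among the 10 genes, were not called between the drivers by limma, edgeR or DESeq2. Hfe2, the hemojuvelin gene and the co-receptor for BMP6, measured 3435, 5861, 5354 and 4877 in luc β-catenin tumours of set 1 and 2205, 241 and 3200 in luc p53 tumours. The log2 difference of 2.0 had an SE of 0.90 (limma adjusted p = 0.147), and it ran from 0.85 without p53 tumour 2, the one at 241, to 2.71 without p53 tumour 3. With lucOS, the set 1 values were 4876 and 8386 in β-catenin tumours and 3792, 12201 and 1001 in p53 tumours, so the highest and the second lowest Hfe2 values of the set, like the lowest, were in p53 tumours. In set 2 Hfe2 ran from 427 to 5370 in β-catenin tumours and from 1284 to 3455 in p53 tumours, with a lucOS difference of 0.33 (limma adjusted p = 0.796). The spread of Hfe2 in set 1, 50.7-fold from the lowest to the highest tumour, was the widest of the 10 genes there.

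Tfr2, the hepatocyte receptor that senses transferrin, ran from 8342 to 11285 in β-catenin tumours and from 5515 to 9502 in p53 tumours of set 1, and from 1064 to 7538 in β-catenin tumours and 4684 to 6886 in p53 tumours of set 2. Its log2 differences, 0.41 with luc and 0.46 with lucOS in set 1 and -0.33 in set 2 (limma adjusted p = 0.227, 0.318 and 0.714), were not called. The low end in set 2 was luc β-catenin tumour 1, at 1064, which also had the lowest Hfe2 value of that set, 427, against a Hamp value of 1099 that was the second highest. Bmp6, the BMP ligand that liver endothelial cells are known to supply, ran from 84.9 to 419 in β-catenin tumours and from 109 to 289 in p53 tumours of set 1. The set 2 range was from 58.8 to 228 in β-catenin tumours and from 130 to 451 in p53 tumours. The Bmp6 differences were 0.08, -0.86 and -0.51 (limma adjusted p = 0.925, 0.428 and 0.548). Of 9 liver endothelium markers, Pecam1 and Cdh5 were lower in β-catenin tumours of set 2 and none was called in set 1. The 9 markers went both ways among lucOS tumours of set 2, from -1.39 to 3.14, with 4 of them above 0. They had a median difference of -0.155, beside -0.161 for all genes. Their summed value ran from 3655 to 8180 in β-catenin tumours and from 7426 to 10000 in p53 tumours of set 2, with Clec4g at 0 in a tumour, and its part in the Bmp6 and Slc40a1 values was not tested. Bmp6 also overlaps Txndc5 and 4930579J19Rik on the other strand, so reads of those genes cannot be told apart from its own.

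Transferrin and its main uptake receptor gave no call by limma, although Trf came close with luc in set 1. Trf (chromosome 9, 103204001 to 103230444, minus strand), which hepatocytes secrete as the iron carrier of plasma, measured 427866, 349942, 413385 and 253610 in luc β-catenin tumours, against 229980, 166691 and 143157 in luc p53 tumours. The log2 difference was 1.0 (SE 0.31, limma adjusted p = 0.0519), or 2.01-fold. It passed the threshold with TMM scaling (1.19, limma adjusted p = 0.0326), edgeR (1.19, adjusted p = 0.0233) and DESeq2 (1.18, adjusted p = 0.000253), and with transcript rows summed (1.0, limma adjusted p = 0.0351), where 11.8%, 11.1%, 20.7% and 14.6% of all genes passed. With lucOS in set 1, Trf measured 311283 and 419462 in β-catenin tumours and 208651, 173605 and 269856 in p53 tumours, for a difference of 0.76 (limma adjusted p = 0.249). Set 2 did not show this. There Trf measured 50413, 210337 and 131313 in lucOS β-catenin tumours and 100756, 144080, 98087 and 151358 in p53 tumours, and the difference was -0.12 (95% interval -1.23 to 0.99, limma adjusted p = 0.890), above 0 with TMM scaling (0.04). Of 7 hepatocyte markers, 5 lay above 0 with luc in set 1, 3 with lucOS in set 1 and 3 with lucOS in set 2. Limma called 2 of them higher with luc and 0 with lucOS in either set. Their summed value, with none of them at 0 in a tumour, was higher in β-catenin tumours of set 1 as well. It ran from 849804 to 1258557 in β-catenin tumours and from 382686 to 644113 in p53 tumours of set 1, and from 164000 to 905649 in β-catenin tumours and from 256856 to 428565 in p53 tumours of set 2. Its part in the Trf differences was not tested. Trf overlaps Gm20425 on the same strand, which could share its reads.

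Tfrc (chromosome 16, 32608920 to 32632794, plus strand), transferrin receptor 1, brings iron into dividing cells and is a known MYC target. In set 1 it measured 7328, 14510, 14709 and 14939 in luc β-catenin tumours and 20326, 24846 and 13300 in luc p53 tumours, and with lucOS 17509 and 14555 in β-catenin tumours and 17267, 17546 and 21625 in p53 tumours. The drivers overlapped in both pairs, and the differences were -0.61 (SE 0.28, limma adjusted p = 0.161) and -0.23 (SE 0.34, limma adjusted p = 0.731). Its set 2 values were 22173, 17528 and 8985 in lucOS β-catenin tumours and 12226, 13707, 11929 and 25092 in p53 tumours, a difference of 0.02 (95% interval -0.76 to 0.80, limma adjusted p = 0.975). The summed cycling markers, beside which Tfrc is often read, ran from 18393 to 48125 in β-catenin tumours and from 52380 to 74869 in p53 tumours of set 1, and from 18804 to 53969 in β-catenin tumours and from 67206 to 88423 in p53 tumours of set 2, without overlap in either set.

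Fth1 (chromosome 19, 9980598 to 9985098, plus strand), the ferritin heavy chain that oxidises iron as it is stored, was above 0 in all 3 driver comparisons without a limma call. It measured 153894, 71200, 103924 and 59319 in luc β-catenin tumours of set 1 against 50651, 75285 and 57823 in luc p53 tumours, and 85945 and 82566 in lucOS β-catenin tumours against 47694, 52434 and 40938 in lucOS p53 tumours. The luc groups overlapped. Its set 2 values were 49224, 76929 and 76313 in lucOS β-catenin tumours and 52431, 47978, 43794 and 53502 in p53 tumours, which overlapped. The log2 differences were 0.59, 0.85 and 0.42 (limma adjusted p = 0.210, 0.189 and 0.174), and DESeq2 called the first (0.85, adjusted p = 0.0455) and the third (0.60, adjusted p = 0.0255).

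Its partner Ftl1, the ferritin light chain gene, is no member of the set but shares the hairpin shown above, and it was called in each driver comparison. It measured 142437, 143340, 152882 and 136348 in luc β-catenin tumours of set 1 against 52425, 53627 and 58801 in luc p53 tumours. With lucOS it measured 142409 and 170960 in β-catenin tumours against 62487, 78071 and 52300 in p53 tumours of set 1. The set 2 values were 104699, 69524 and 114113 in lucOS β-catenin tumours against 35229, 49794, 36141 and 40511 in lucOS p53 tumours. Every β-catenin tumour was above every p53 tumour in both sets, as for 4.71% of all genes tested in set 1 and 7.14% in set 2. The log2 differences were 1.39, 1.30 and 1.23 (SE 0.20, 0.24 and 0.21, limma adjusted p = 0.00237, 0.0214 and 0.00781). The second was lost without either β-catenin tumour or p53 tumour 1 or 3 (adjusted p from 0.0553 to 0.107) and with the compared groups alone in the fit (adjusted p = 0.158), and the third against the JAX-titled p53 tumour alone (1.21, adjusted p = 0.440). GENCODE names 2 Ftl1 pseudogenes that could share its reads. Of the transcripts with a hairpin near the start, Ftl1 was thus higher in β-catenin tumours of both sets, Fth1 was not called by limma, and Slc40a1 was lower in set 2. Such hairpins act on translation, so these transcript levels do not show whether iron regulatory proteins were bound.

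**Figure D4:**
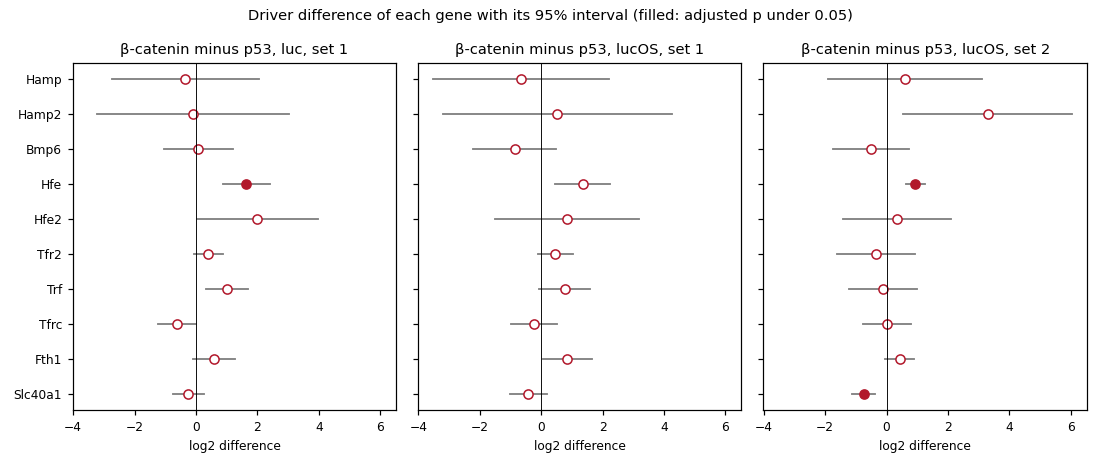
Log2 difference between β-catenin and p53 tumours for each iron handling gene, with luc in set 1 (left), lucOS in set 1 (middle) and lucOS in set 2 (right). Points are limma estimates, lines their 95% intervals, and filled points have an adjusted p under 0.05. Hfe lies at 1.65, 1.35 and 0.93, Slc40a1 at -0.26, -0.42 and -0.75, and the intervals of Hamp and Hamp2 are the widest.

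Between the reporters, none of the 10 genes was called. Among p53 tumours of set 1, β-catenin tumours of set 1 and β-catenin tumours of set 2, limma called 0 of 10, where 0.00% of all genes tested were called, and 0 of the 10 had an unadjusted p under 0.05. Over all genes, 722, 222 and 288 had one, edgeR called 0 in each comparison and DESeq2 called 9, 18 and 10. The 10 genes gave no call in any alternative. The lucOS minus luc differences of Hfe were 0.44, 0.14 and -0.23, with 95% intervals of -0.37 to 1.25, -0.72 to 0.996 and -0.56 to 0.10. Those of Hamp were 0.01, -0.30 and 0.66, and the widest of these intervals ran from -2.02 to 3.34. The difference of Hfe2 among p53 tumours, 1.59 (95% interval -0.51 to 3.69, limma adjusted p = 0.952), was the farthest from 0 of the 30 values. The driver difference with lucOS minus that with luc in set 1 was called for 0 of 10 genes by limma, edgeR and DESeq2, where 0.00% of all genes were called by limma, 436 of them having an unadjusted p under 0.05, and DESeq2 called 17.

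Around these genes, 87 others of iron and heme metabolism were listed in 9 groups, of which 86 were tested in set 1 and 83 in set 2. With luc in set 1, 15 were higher and 5 lower in β-catenin tumours, with lucOS in set 1, 4 were higher and 0 lower, and with lucOS in set 2, 10 were higher and 4 lower. The shares of all genes called higher were 5.93%, 1.62% and 6.08%, and those called lower were 9.16%, 2.59% and 10.9%. The lists were chosen with earlier results of these data known. Neither these counts nor those of the single groups below therefore test whether such genes differ more than others. No listed gene was called between the reporters by limma. Against the JAX-titled p53 tumour alone, where few genes could pass, none of the 11 wider calls named in set 2 did. Each kept its direction, with 1.64 for Alas1, 0.86 for Uros and 0.38 for Tmprss6, against 2.38, 0.95 and 1.06 with all p53 tumours. These genes were picked by their calls, and the comparison reused the same β-catenin tumours and 1 of the same p53 tumours. A kept direction therefore says little about the names. Of the 10 iron handling genes, 4 changed sign in the same comparison.

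Heme synthesis, which consumes iron, held the most calls of the 9 groups in each driver comparison. Of its 10 genes, 5 were higher with luc in set 1, 2 with lucOS in set 1 (Alas1 and Fech) and 5 with lucOS in set 2, and none was lower. The 5 were Alas1, Alad, Uros, Urod and Fech in both cases. The median differences were 0.84, 0.68 and 0.75, beside all-gene medians of -0.20, -0.15 and -0.16. Alas1, the rate-limiting enzyme of heme synthesis in hepatocytes, measured 27431, 16496, 20358 and 23311 in luc β-catenin tumours against 2701, 3003 and 2995 in luc p53 tumours of set 1. Its log2 differences were 2.89, 1.89 and 2.38 (limma adjusted p = 0.000473, 0.0266 and 0.0133). For Alas1 every β-catenin tumour exceeded every p53 tumour in both sets, as for 4.71% of all genes tested in set 1 and 7.14% in set 2. The lucOS call of set 1 was lost without either β-catenin tumour (adjusted p = 0.119 and 0.0669) and with the compared groups alone (0.139). Fech, which inserts iron into the porphyrin ring, differed by 1.06 with lucOS in set 1 and 1.32 in set 2 (limma adjusted p = 0.0457 and 0.0226). Both Fech calls depended on single tumours: the first was lost without either β-catenin tumour or p53 tumour 1 or 3 (adjusted p from 0.0924 to 0.197), with the compared groups alone (0.151) and without the filter on low values (0.0537), and the second without β-catenin tumour 3 or p53 tumour 1 or 3 (0.0546 to 0.0701). Uros, an earlier enzyme of the path, differed by 0.95 in set 2 (limma adjusted p = 0.0129). Alas2, the red blood cell form of the enzyme, was listed with the red blood cell markers, and of those 8 none was called in any of these comparisons. Their summed value ran from 1833 to 19922 in β-catenin tumours and from 1811 to 27177 in p53 tumours of set 1, which overlapped.

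In the group of heme scavenging, breakdown and transport, 3 of 10 were higher with luc in set 1 (Blvrb, Hp and the receptor gene Lrp1), 1 with lucOS in set 1 (Hp) and 1 in set 2 (Blvrb), where 1 was lower. Blvrb, biliverdin reductase B, differed by 3.36 with luc in set 1 and 1.69 in set 2 (limma adjusted p = 0.00322 and 0.0114). Hp, the gene of haptoglobin, which binds free haemoglobin in plasma, differed by 3.11 with luc and 2.28 with lucOS in set 1 (limma adjusted p = 0.00144 and 0.0338), and the second was lost without either β-catenin tumour or p53 tumour 1 or 3 (0.0736 to 0.125) and with the compared groups alone (0.117). Flvcr2, a transporter reported to carry heme, was lower in set 2, at 48.0, 295 and 70.8 in lucOS β-catenin tumours against 663, 397, 533 and 676 in p53 tumours, a difference of -2.46 (limma adjusted p = 0.0304) that was lost without β-catenin tumour 1 or 3 or p53 tumour 1, 3 or 4 (0.0596 to 0.0958) and with edgeR (-1.89, adjusted p = 0.0846). Without β-catenin tumour 2, the one at 295, the Flvcr2 difference was -3.23.

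In iron uptake and reduction, 2 of 12 genes were higher (Scara5 and the iron transporter gene Slc11a2) and 1 lower with luc in set 1, none was called with lucOS in set 1, and 1 was higher and 1 lower in set 2. Scara5, a receptor for ferritin known in mouse, measured 4955, 496, 1795 and 134 in luc β-catenin tumours against 17.7, 23.8 and 12.3 in luc p53 tumours of set 1, a difference of 5.58 (SE 1.05, limma adjusted p = 0.00813) that ran from 4.75 (β-catenin tumour 1 left out) to 6.48 (β-catenin tumour 4 left out). In set 2 it differed by 3.23 (limma adjusted p = 0.0365), at 18.9, 182 and 126 in lucOS β-catenin tumours and 29.2, 5.52, 5.97 and 2.38 in p53 tumours, which overlapped, and the call was lost without β-catenin tumour 2 or 3 or p53 tumour 2, 3 or 4 (0.0725 to 0.113) and with the compared groups alone (0.0587). The set 2 difference of Scara5 was 4.21 and 2.61 without β-catenin tumours 1 and 2 and 3.85 without p53 tumour 1. Steap2, a metalloreductase, was lower with luc in set 1 (-2.67, limma adjusted p = 0.0402), a call that needed every tumour but β-catenin tumours 1 and 4 (up to 0.120 without 1 of the others, and -1.93 without β-catenin tumour 3) and was lost with TMM scaling (0.0587) and edgeR (0.0776). Limma called Steap2 in no other driver comparison. Its value in every β-catenin tumour was below that in every p53 tumour in both sets, as for 8.96% and 15.9% of all genes tested. Cybrd1, a ferric reductase known in the gut, was lower in set 2 (-2.93, limma adjusted p = 0.0156, and 0.0545 without β-catenin tumour 3), and the difference was -3.55 without β-catenin tumour 2. Among the storage genes and export oxidases, 2 of 6 were higher and 1 lower with luc in set 1 and Ftl1 alone was called in both lucOS comparisons. Cp, ceruloplasmin, the ferroxidase that works with ferroportin, was higher with luc in set 1 (1.91, limma adjusted p = 0.00890), and Pcbp2, a chaperone that delivers iron to ferritin, was lower (-0.64, limma adjusted p = 0.0247). The Pcbp2 call was lost without β-catenin tumour 2 or 3 or p53 tumour 1 or 2 (0.0521 to 0.0984), with TMM scaling (0.0989), with median centring (0.0537) and with edgeR (0.0983).

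Most regulators of hepcidin had no call. In the BMP and SMAD arm, the median differences were -0.50, -0.35 and -0.50, beside all-gene medians of -0.20, -0.15 and -0.16. There 4 of 20, 4 of 20 and 3 of 17 genes lay above 0, and 4, 3 and 9 had an unadjusted p under 0.05. Over all genes tested, 5237 of 16108, 3809 of 16108 and 5387 of 15625 had one. By limma, 0 of 20 were higher and 2 lower with luc in set 1, none was called with lucOS in set 1, and 2 of 17 were higher and 1 lower in set 2. The lower ones with luc were Fam132b, the gene of erythroferrone, known from red cell precursors as a suppressor of hepcidin (-1.95, limma adjusted p = 0.0492), and Fkbp1a, which binds BMP type I receptors (-0.74, limma adjusted p = 0.0279), and both calls depended on the processing. That of Fam132b was lost with TMM scaling, median centring, edgeR, the compared groups alone, summed transcript rows and no filter on low values (adjusted p from 0.0515 to 0.0999), and that of Fkbp1a with TMM scaling, median centring, edgeR, DESeq2 and the compared groups alone (0.0517 to 0.104). Leaving out 1 tumour ended the Fam132b call in 6 of 7 cases (all but β-catenin tumour 1, up to 0.168) and the Fkbp1a call in 5 of 7 (all but β-catenin tumours 2 and 4, up to 0.0989). In set 2, Bmpr1a, a BMP type I receptor, was lower (-0.81, limma adjusted p = 0.00869), while Tmprss6, the protease that cleaves hemojuvelin (1.06, limma adjusted p = 0.0491), and Atoh8, a transcription factor of the same pathway (2.43, limma adjusted p = 0.0381), were higher. The Tmprss6 call held only without p53 tumour 4 (up to 0.131 otherwise) and the Atoh8 call only without β-catenin tumour 1 or p53 tumour 4 (up to 0.125 otherwise). Both were lost with the compared groups alone (0.0733 and 0.053), and Tmprss6 also without the filter (0.0576). The Atoh8 difference was 3.13 and 1.77 without β-catenin tumours 1 and 3. In the interleukin 6 and STAT3 arm, none of 8 was called in set 1 and 1, Il6 itself, was lower in set 2 (-3.01, limma adjusted p = 0.0200). Il6 values in the lucOS β-catenin tumours there ran from 0 to 2.47, near the floor, so the size of that difference is uncertain. Of the 3 genes of the iron regulatory protein system, Fbxl5, whose product degrades iron regulatory protein 2 when iron is plentiful, was lower with luc in set 1 (-0.98, limma adjusted p = 0.0124, and 0.0592 without p53 tumour 1), and none was called in the other driver comparisons.

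**Figure D5:**
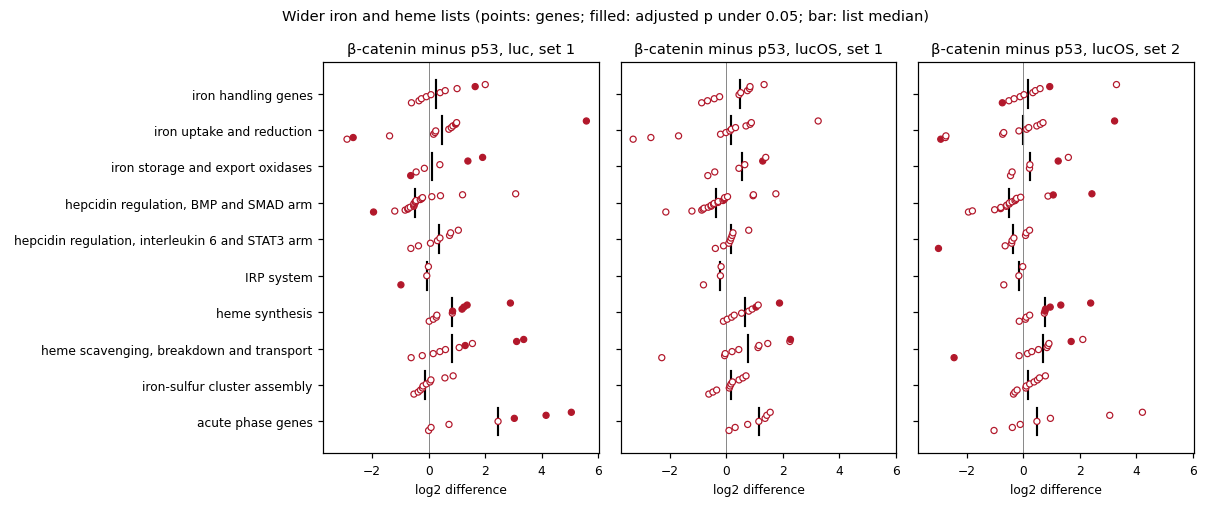
Log2 difference between β-catenin and p53 tumours of every tested gene in the iron handling set and in 9 wider groups, with luc in set 1 (left), lucOS in set 1 (middle) and lucOS in set 2 (right). Each point is a gene, filled where its adjusted p is under 0.05, and bars are group medians. The heme synthesis medians lie at 0.84, 0.68 and 0.75 and those of the BMP and SMAD arm at -0.50, -0.35 and -0.50.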

How the data were processed

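Per the labels, total RNA was made into TruSeq libraries. The authors deposited 1 table of normalised signal for each set, and the submitters' processing notes name TopHat2, featureCounts, DESeq2 and mm10. All deposited signal values (100%) were whole reads divided by 1 factor per tumour, within 0.01 reads, and the recovered counts served for depth, edgeR and DESeq2. Of 33068 transcript rows in set 1, the one with the highest mean stood for each gene, and 27 symbols of set 2 that had become dates were left out. Set 2 was scaled separately, so tests stay within a set.

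Genes reaching 10 in 2 tumours (set 1) or 3 tumours (set 2) or more were fitted with limma 3.58.1 (trend) in R 4.3.3 on log2(value + 1), all groups of a set together, with Benjamini-Hochberg adjustment over all genes, after tests on simulated data. A fold understates changes of low genes. Alternatives were TMM scaling, median centring, edgeR 4.0.16, DESeq2 1.42.0, a pseudocount of 10, no filter, compared groups alone, summed transcript rows, JAX-titled tumours alone, and each tumour left out. Groups come from the genotype labels. The members and lists were chosen with earlier results of these data known. From the wider lists, called genes with a group mean of at least 50 were named, up to 8 per direction and driver comparison. Ftl1, Alad, Uros, Urod, Fech, Slc11a2 and Lrp1 with luc in set 1, and Alad, Urod and Il6 in set 2 fell outside this and were named after their values were seen. In set 2, 84 of the 87 listed genes were matched (Id1, Id2 and Id3 are not analysed here). Flvcr2 was matched as Mfsd7c.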

Additional observations from a re-analysis of the deposited data

Results flagged for a closer look

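In groups of 4 tumours, a value was flagged where its gap to the nearest other, divided by the range, exceeded Dixon's limit of 0.829. For normally distributed values, chance passes this limit in about 1 in 20 groups. Of 62 groups tested, 10 passed it. The values were not logged and the same tumours recur across genes, so this count cannot be compared with that rate. Tfrc was lowest in luc β-catenin tumour 1 of set 1, at 7328, against 14510 to 14939 in the other luc β-catenin tumours, and highest in p53 tumour 4 of set 2, the one titled JAX, at 25092, against 11929 to 13707 in the other p53 tumours. The luc β-catenin tumour 1 also held the highest Atoh8 (757, against 237 to 289), Cybrd1 (390, against 59.1 to 76.0) and Orm1 (12962, against 4435 to 5687) and the lowest Tmprss6 (6225, against 11787 to 12894). Hp was highest in luc β-catenin tumour 3 of set 1 (225896, against 97075 to 114022). In set 2, Cybrd1 (351, against 143 to 171) and Scara5 (29.2, against 2.38 to 5.97) were highest in p53 tumour 1, and Blvrb in p53 tumour 2 (1351, against 560 to 674).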

How the results depend on the processing

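Over the 30 driver differences of the iron genes, 381 recomputed values kept their direction and side of the threshold, 14 gained a call, 4 lost one and 31 changed sign, and the cause was not tested. Hfe, Fth1, Tfr2 and Slc40a1 never changed sign. The count called with luc in set 1 became 2 with TMM scaling, median centring, edgeR and summed transcript rows and 3 with DESeq2, all gaining Trf (11.8%, 12.2%, 11.1%, 14.6% and 20.7% of all genes called). With lucOS it became 2 with DESeq2 in set 1 (12.7%), and in set 2 it became 3 with edgeR (14.3%) and the compared groups alone (15.4%), 4 with DESeq2 (24.9%) and 0 with JAX-titled tumours alone (0.152%). Leaving out 1 tumour gave 0 to 1 with lucOS in set 1 (1 without p53 tumour 2) and 1 to 3 in set 2 (1 without p53 tumour 3 or lucOS β-catenin tumour 3).

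Hamp2 with luc turned to 0.105 (TMM), 0.0225 (median centring), 1.0 (edgeR) and 0.999 (DESeq2). In set 2, Trf turned to 0.038 (TMM), 0.232 (edgeR) and 0.233 (DESeq2), and with JAX-titled tumours alone Hamp turned to -0.131, Tfrc to -0.726, Hfe2 to -0.204 and Bmp6 to 0.0475. Leaving out 1 tumour, Hamp ran from -1.77 to 0.861 with luc, -1.69 to 0.377 with lucOS in set 1 and -0.405 to 1.32 in set 2. Hamp2 ran from -0.993 to 0.773 with luc and -1.25 to 2.29 with lucOS in set 1, Bmp6 from -0.299 to 0.317 with luc, Hfe2 from -0.0891 to 1.71 with lucOS in set 1, and in set 2 Tfrc from -0.254 to 0.398 and Trf from -0.575 to 0.456. Of the wider genes' recomputed values, 306 kept and 106 lost their calls: 66 of the losses with 1 tumour left out, 11 with JAX-titled tumours alone, 10 with the compared groups alone, 7 with edgeR, 4 with TMM scaling, 3 each with median centring and no filter, and 1 each with DESeq2 and summed transcript rows. Groups of 2 to 4 tumours and the mapping of names onto drivers in set 2 limit these results. No paired analysis was possible because the labels give no replicate numbers.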

Other observations

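Acute phase genes, several of which interleukin 6 induces in hepatocytes through the STAT3 path that also acts on hepcidin, were called in 3 of 7 cases with luc in set 1 and in none with lucOS in either set. Of all genes, 15.1% were called with luc in set 1, and 4.21% and 17.0% with lucOS in sets 1 and 2. The lucOS differences lay above 0 for 7 of 7 in set 1 (median 1.16) and 4 of 7 in set 2 (median 0.48). Limma called the driver difference with lucOS minus that with luc for none of them. Among luc tumours of set 1, Orm1 and Orm2, the orosomucoid genes, differed by 4.16 and 5.05, and Saa1, serum amyloid A1, by 3.03 (limma adjusted p = 0.0218, 0.0144 and 0.0428). Orm2 ran from 469 to 1412 in luc β-catenin tumours and from 1.36 to 150 in luc p53 tumours of set 1. Without p53 tumour 1, the lowest of them for Orm1 (43.5) and Orm2 (1.36), the Orm1, Orm2 and Saa1 differences were 2.64, 3.31 and 1.72. Without p53 tumour 2 those of Orm2 and Saa1 were 6.31 and 3.89, and without p53 tumour 3 that of Orm1 was 5.33. The Orm1 call was lost with edgeR (3.30, adjusted p = 0.0534). The Saa1 call was lost with edgeR (2.63, adjusted p = 0.0661), with the compared groups alone (0.072) and without any 1 tumour other than p53 tumour 2 (0.0530 to 0.111). In the same tumours Hamp differed by -0.34 (limma adjusted p = 0.854).

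Of 10 genes of iron-sulfur cluster assembly, the mitochondrial path that shares its iron supply with heme synthesis, limma called none in any driver comparison, and 2, 1 and 3 had an unadjusted p under 0.05. Over all genes tested, 5237 of 16108, 3809 of 16108 and 5387 of 15625 had one. The median differences of the 10 genes were -0.14, 0.16 and 0.16, with single genes between -0.61 and 0.87.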
